A study of Sus scrofa with 28 samples.

Results

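Measured here were 4 genes in the semimembranosus, a muscle of the pig's ham: TMBIM6, which restrains cell death from the membrane of the endoplasmic reticulum, and the chaperones HSP90AA1, HSP70.2 and HSPE1, which help other proteins fold. They are 4 of the 211 genes that the platform annotation names on the array. They occupy 12 of its 4608 rows: 6 for HSP90AA1, 3 for HSPE1, 2 for TMBIM6 and 1 for HSP70.2. Every row to which the annotation gives exactly 1 of these symbols was used, and all 12 passed, since no filter on dim signal was applied. The genes were chosen from an earlier look at the same comparison of destructured with normal muscle, in which 1 TMBIM6 row had the largest difference on the array. Their group differences are therefore given as a description, with no test.

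The submitters describe 14 pigs, though 1 pig number stands in both groups and nothing says whether it is 1 animal; each is counted here as a pig. Each gave 1 RNA sample, copied into cDNA carrying radioactive phosphorus and hybridised to 1 membrane that holds every probe in a left and a right part. The 7 normal pigs had meat of low L* (darker) and the 7 destructured pigs meat of high L* (paler), the sign of the defect that the submitters call destructured. Breed, sex, age, slaughter conditions and the time of sampling are not given in the sources used here, and neither group had a treatment in the labels. A spot's signal is a deposited intensity on a linear scale. Below, a value is a log2 intensity after quantile normalization of the 28 array parts, averaged over the left and right part of a pig. The pig is the replicate, and differences are destructured minus normal with the standard error (SE) of a limma fit over all rows.

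HSP90AA1 encodes the stress-inducible form of the cytosolic chaperone HSP90, which holds kinases, steroid receptors and myosin in a foldable state. HSP70.2 encodes an inducible HSP70, which binds unfolded stretches of protein, and HSPE1 encodes the mitochondrial lid protein that closes the folding chamber made by HSPD1. TMBIM6, also called BI-1 or TEGT in the RefSeq gene table, is a calcium leak channel of the endoplasmic reticulum that protects cells against death from stress in that compartment. The same table (assembly Sscrofa11.1) gives HSPA1A and HSPA1B as other names of HSP70.2 and places HSPA1L next to it, and places HSPD1 next to HSPE1. HSP90 and HSP70 have close relatives of similar sequence. Whether a cDNA probe also bound RNA of a relative was not tested.

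Facts of the whole array bear on these rows. The left and right part of a membrane correlated over all rows at 0.868 to 0.963 in 13 pigs, and at 0.380 in normal replicate 3. Each difference is therefore also given without that pig's right part, called the discordant part below. Place in the table moved with the group difference: the 72 places that repeat down the rows (6 rows of 12 columns) held 27.3% of its variance, and its part in the rows below was not tested beyond the values given with place medians removed. The annotation is old, and rows listed for the same gene followed each other only loosely over pigs, as shown for each gene below. Whether the names are aligned with the values was not tested. A gene name below therefore stands for the row listed for that gene, and not for a checked measurement of it. The 95 rows listed for 9 skeletal muscle markers lay at a median percentile of 47.5 of all rows, so their level did not set them above the rest of the array. In whole muscle, fewer cells of a type and less RNA per cell cannot be told apart.

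The clearest separation of the groups among the 12 rows was in 1 of the 2 rows listed for TMBIM6. Row 8552 was at 0.71, 1.42 and 2.17 in normal pigs and at -0.28, -0.10 and 0.07 in destructured pigs (lowest, median and highest log2 intensity). Every destructured pig was below every normal pig. The means were 1.36 ± 0.476 in normal and -0.10 ± 0.127 in destructured muscle (SD, n = 7 each), a difference of -1.46 (SE 0.18), so that normal muscle was 2.75-fold higher. No other row of the 4608 had a larger absolute difference.

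The fit called 1 of the 12 rows, TMBIM6 row 8552, where it called 0.651% of all rows. The groups did not overlap in 1 of the 12 rows, again row 8552, where this held for 1.28% of all rows. Since the choice of genes used this comparison, nothing is read from either count. Of the 59 rows of the array without overlap, 6 were lower and 53 higher in destructured muscle.

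The separation in row 8552 was present in both parts of the membranes, which repeat the same RNA. In the left part normal pigs ran from 0.78 to 2.89 and destructured pigs from -0.31 to 0.10. In the right part they ran from 0.63 to 1.66 and from -0.34 to 0.11. The parts of a pig differed by a median of 0.16, less than the median of 0.27 over all rows. Normal replicate 4 was the pig with the largest spread, with 2.89 on the left and 1.45 on the right. Within the groups the left and right values correlated at 0.54 over the 14 pigs, and at 0.65 over the 13 without normal replicate 3 (a description; the parts share the RNA and the membrane).

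**Figure D1:**
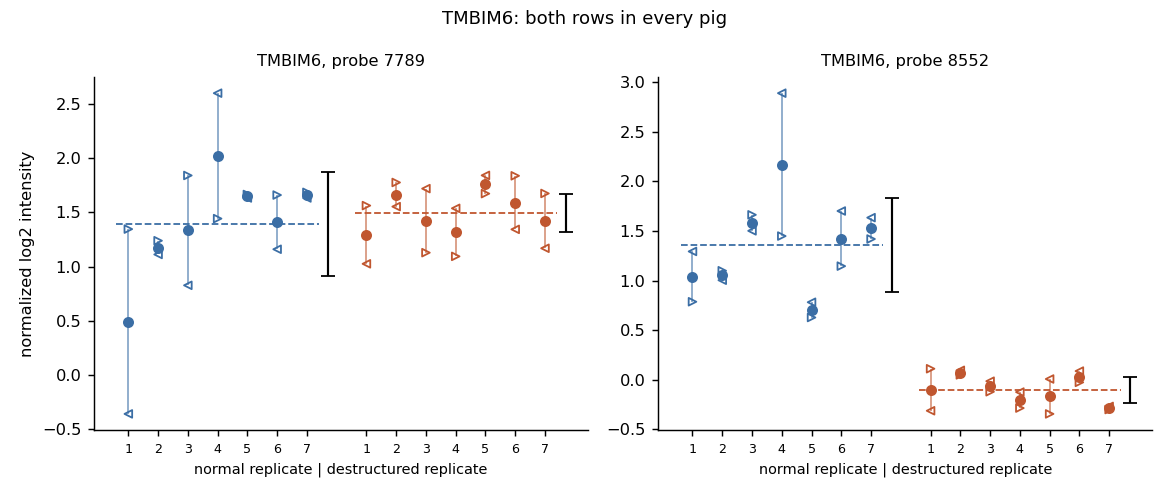
Normalized log2 intensity of the 2 rows listed for TMBIM6 in each of 7 normal (blue) and 7 destructured (orange) pigs. Filled circles are pigs, open triangles the left and right array part joined by a line, dashed lines group means, and black bars beside each group the mean ± SD. In row 8552 the destructured pigs lie between -0.28 and 0.07 and the normal pigs between 0.71 and 2.17; in row 7789 the groups overlap.

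The spread of row 8552 also differed in size between the groups, with an SD of 0.476 among normal and 0.127 among destructured pigs. With all array parts this was not particular to row 8552. The SD was larger among normal pigs in each of the 12 rows but HSP90AA1 row 8508 (0.163 in normal and 0.255 in destructured pigs). Without the discordant part the normal SD fell to 0.334, 0.235, 0.109 and 0.179 in rows 5689, 8256, 6646 and 5554. These values lay below the SD of destructured pigs with all parts (0.398, 0.259, 0.112 and 0.208). Row 8552 kept a normal SD of 0.467. In row 8552 normal pigs covered a wide range, led by replicate 4 at 2.17 with replicate 5 lowest at 0.71. Destructured pigs sat close together near the low end of the array. Before any scaling, the deposited intensity (mean of both parts) was 1.62 to 2.87 in normal pigs and 0.806 to 1.31 in destructured pigs. The row stood at the percentiles 26 to 81.7 of its own array part in normal pigs and 7.18 to 15.2 in destructured pigs, again without overlap. In destructured muscle 486 of the 4608 rows had a lower mean than row 8552. The sources used here give no signal over background, so whether this row had signal above the floor in destructured pigs could not be told.

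**Figure D2:**
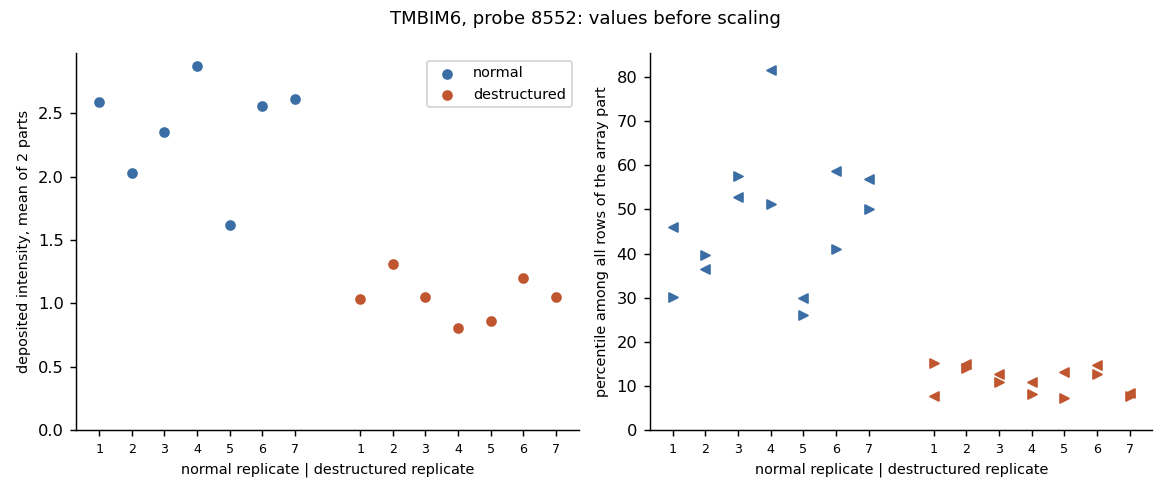
TMBIM6 row 8552 before scaling. Left, deposited intensity per pig (mean of the 2 array parts, linear scale from 0); right, percentile of the row among the 4608 rows of each array part (left- and right-pointing triangles for the 2 parts). Destructured pigs lie at 0.806 to 1.31 and normal pigs at 1.62 to 2.87.

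The second TMBIM6 row, 7789, showed no such gap. It was at 0.49, 1.41 and 2.02 in normal pigs and at 1.29, 1.42 and 1.76 in destructured pigs (lowest, median and highest). The groups overlapped, and the destructured pigs all lay inside the normal range. The means were 1.39 ± 0.481 and 1.50 ± 0.178 (SD, n = 7 each), a difference of 0.10 (SE 0.18). Without the discordant part the difference was 0.18 (SE 0.19), and with place medians removed 0.26 (SE 0.20). In normal replicate 1 its parts were far apart, at -0.36 on the left and 1.35 on the right, and without that pig the difference was -0.05. Within the groups the 2 TMBIM6 rows correlated at 0.51 over pigs, and at 0.43 without the discordant part (n = 14; the rows share each array). Normal replicate 4 was highest in both rows, with left parts of 2.60 in row 7789 and 2.89 in row 8552. Its right parts were at 1.44 and 1.45. How far the correlation rested on that pig was not tested. The group difference was seen in row 8552 alone. The mean of both rows per pig was 1.37 ± 0.419 in normal and 0.70 ± 0.128 in destructured pigs.

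Row 8552 kept its value when the discordant array part was left out, at -1.45 (SE 0.17), and with place medians removed, at -1.51 (SE 0.17). The 63 other rows at its place in the repeating layout had a median difference of 0.04. The pig number found in both groups belongs to normal replicate 2 and destructured replicate 3. Row 8552 was at 1.05 in the first and -0.07 in the second. With both left out, the difference was -1.52. Adding an offset of 1 to every intensity before log2, which shrinks dim signals, gave -0.90.

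With all array parts HSP90AA1, the most widely probed of the 4 genes, showed no common direction across its 6 rows. The differences were negative in 4 rows and positive in 2, from -0.49 to 0.13, and the mean of all 6 rows per pig was 2.57 ± 0.225 in normal and 2.41 ± 0.130 in destructured muscle (SD, n = 7 each). Without the discordant part row 8256 turned negative (-0.16), and row 5958 was the only positive row (0.18). The difference of the 6-row means was -0.16 both with and without that part. Rows 5185 and 5689 had the most negative values.

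Row 5185 was at 1.02, 1.50 and 1.66 in normal pigs and at 0.60, 1.08 and 1.18 in destructured pigs (lowest, median and highest). All 7 destructured pigs lay below the normal mean and 3 lay below the lowest normal pig. The difference was -0.41 (SE 0.13). It was seen in the right part of the membranes, where it was -0.89 (SE 0.23), while the left part gave 0.04 (SE 0.14). The parts of a pig differed in this row by a median of 0.47, and within the groups their correlation was -0.27 (n = 14). Without the discordant part it was -0.32 (SE 0.13).

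Row 5689 was at 1.79, 1.99 and 2.74 in normal pigs and at 1.11, 1.69 and 2.13 in destructured pigs. All 7 destructured pigs lay below the normal mean, and 4 lay below the lowest normal pig. The difference was -0.49 (SE 0.20), and -0.35 (SE 0.18) without the discordant part, which had read 3.67 against 1.79 on the left of the same pig. Rows 5185 and 5689 lie at the same place in the repeating layout, whose other rows had a median difference of -0.17. With place medians removed they were at -0.26 (SE 0.14) and -0.33 (SE 0.18).

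The brightest HSP90AA1 row, 7503, lay at the percentile 99.1 of all rows and was at 4.62, 5.90 and 6.06 in normal and at 4.99, 5.61 and 6.08 in destructured pigs. Its difference was -0.16 (SE 0.21), and the groups overlapped across most of their range. Normal replicate 3 was its lowest pig, and here its left part (4.66) was as low as its right part (4.57). Without the discordant part the difference was -0.16 (SE 0.20), and without that whole pig -0.34 (SE 0.15). With 1 pig left out the difference of row 7503 ran from -0.34 to -0.06. Row 8256 was at 1.41, 3.38 and 3.89 in normal and at 2.96, 3.23 and 3.78 in destructured pigs, a difference of 0.13 (SE 0.28). That sign was not stable. Without the discordant part, which had read -0.65, the difference was -0.16 (SE 0.13). With place medians removed it was 0.20 (SE 0.18), and with both steps 0.11 (SE 0.16). The left part alone gave -0.39 (SE 0.25). The remaining rows, 5958 at 0.13 (SE 0.20) and 8508 at -0.19 (SE 0.13), had overlapping groups as well.

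**Figure D3:**
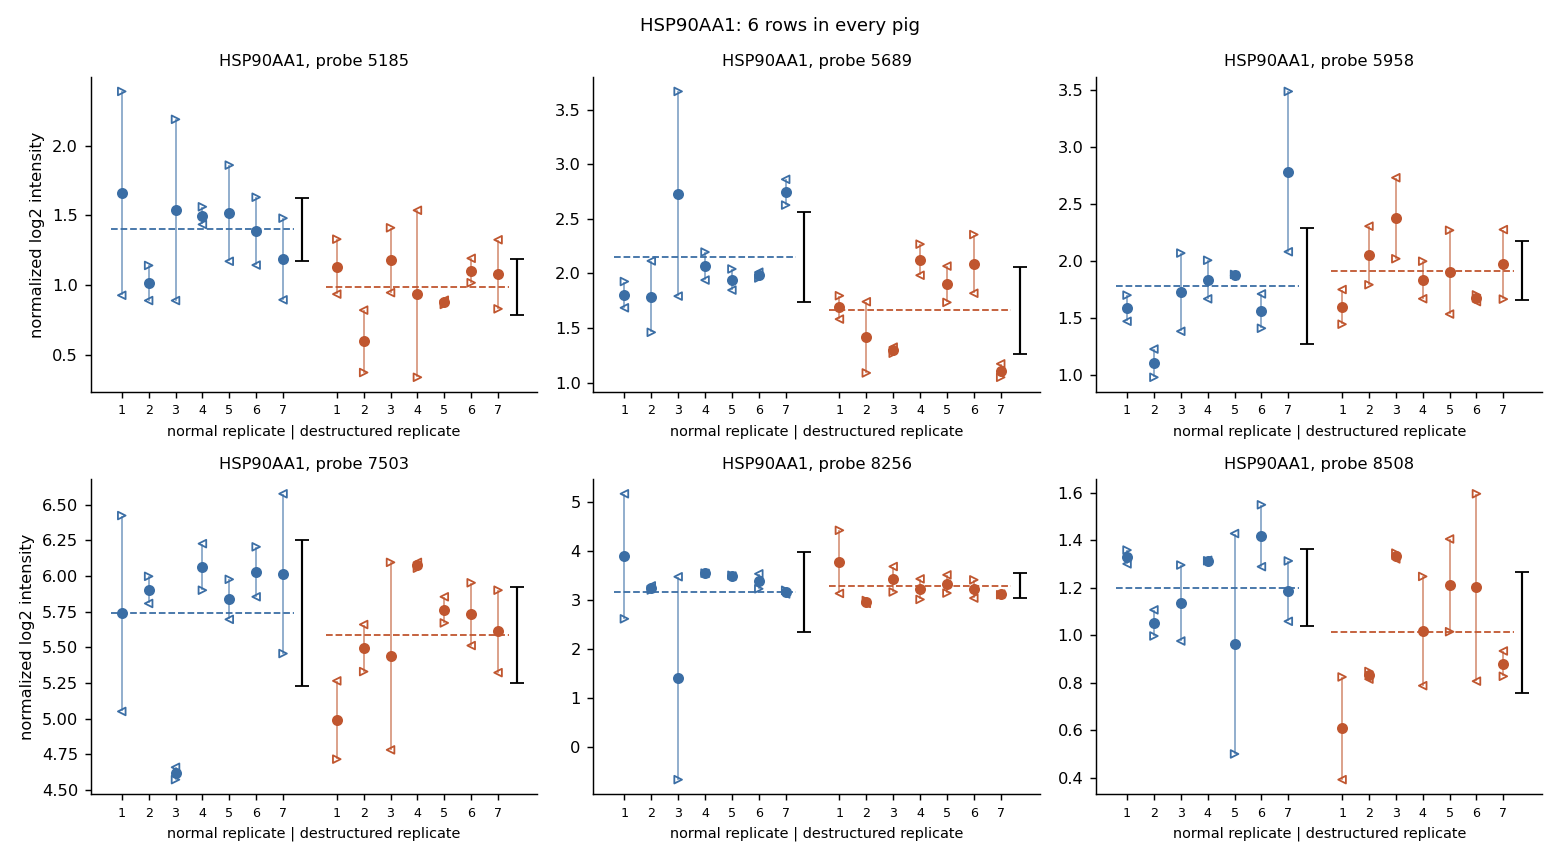
Normalized log2 intensity of the 6 rows listed for HSP90AA1 in every pig, normal in blue and destructured in orange. Filled circles are pigs, open triangles the left and right array part joined by a line, dashed lines group means, black bars the mean ± SD; each panel has its own vertical scale. The groups overlap in all 6 rows, and the right part of normal replicate 3 stands far from its left part in rows 5689 and 8256.

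Rows listed for HSP90AA1 did not vary together. Within the groups their 15 pairs correlated over pigs from -0.46 to 0.60 with a median of 0.09, and 6 pairs were negative. Without the discordant part the median was 0.24, from -0.35 to 0.63, with 5 negative pairs. The pair of bright rows 7503 and 8256 went from 0.60 to -0.35 when that part was left out.

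HSP70.2 was measured by 1 dim row, 6646, at the percentile 4.95 of all rows. It was at -0.63, -0.37 and 1.01 in normal pigs and at -0.75, -0.57 and -0.47 in destructured pigs (lowest, median and highest). Of the 7 destructured pigs 2 lay below the lowest normal pig, and the groups overlapped. The means were -0.21 ± 0.545 and -0.58 ± 0.112 (SD, n = 7 each), a difference of -0.37 (SE 0.20). Most of that difference came with 1 array part: the right part of normal replicate 3 read 2.55, against -0.54 on the left. Without it the normal mean was -0.41 ± 0.109 and the difference -0.15 (SE 0.09). The sign was negative in all 26 alternatives that kept the row, from -0.57 to -0.10. With place medians removed it was -0.15 (SE 0.10).

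HSPE1 had 1 very bright row and 2 dim ones, and neither direction held across them. Row 5202, at the percentile 99.8 of all rows, was at 4.65, 6.48 and 6.86 in normal pigs and at 6.29, 6.51 and 6.80 in destructured pigs. All 7 destructured pigs lay above the normal mean of 6.20, which normal replicate 3 pulled down with a right part at 2.57 and a left part at 6.74. The difference of 0.33 (SE 0.27) became 0.03 (SE 0.15) without that part.

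Row 5554 was at 0.10, 0.44 and 2.11 in normal and at 0.01, 0.37 and 0.55 in destructured pigs, with the same pig highest (3.89 on the right, 0.34 on the left). Its difference of -0.23 (SE 0.24) became 0.03 (SE 0.12) without the discordant part. Row 8416 was at 0.02, 0.50 and 1.83 in normal and at 0.18, 0.55 and 0.78 in destructured pigs, a difference of -0.02 (SE 0.22). Its highest pig was normal replicate 1, with 2.94 on the left and 0.72 on the right. In the 3 HSPE1 rows together the group means per pig were 2.44 ± 0.130 and 2.47 ± 0.060 (SD, n = 7 each), a difference of 0.03. Their 3 pairs correlated over pigs at -0.72, -0.49 and -0.09, and at 0.34, -0.50 and -0.75 without the discordant part.

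**Figure D4:**
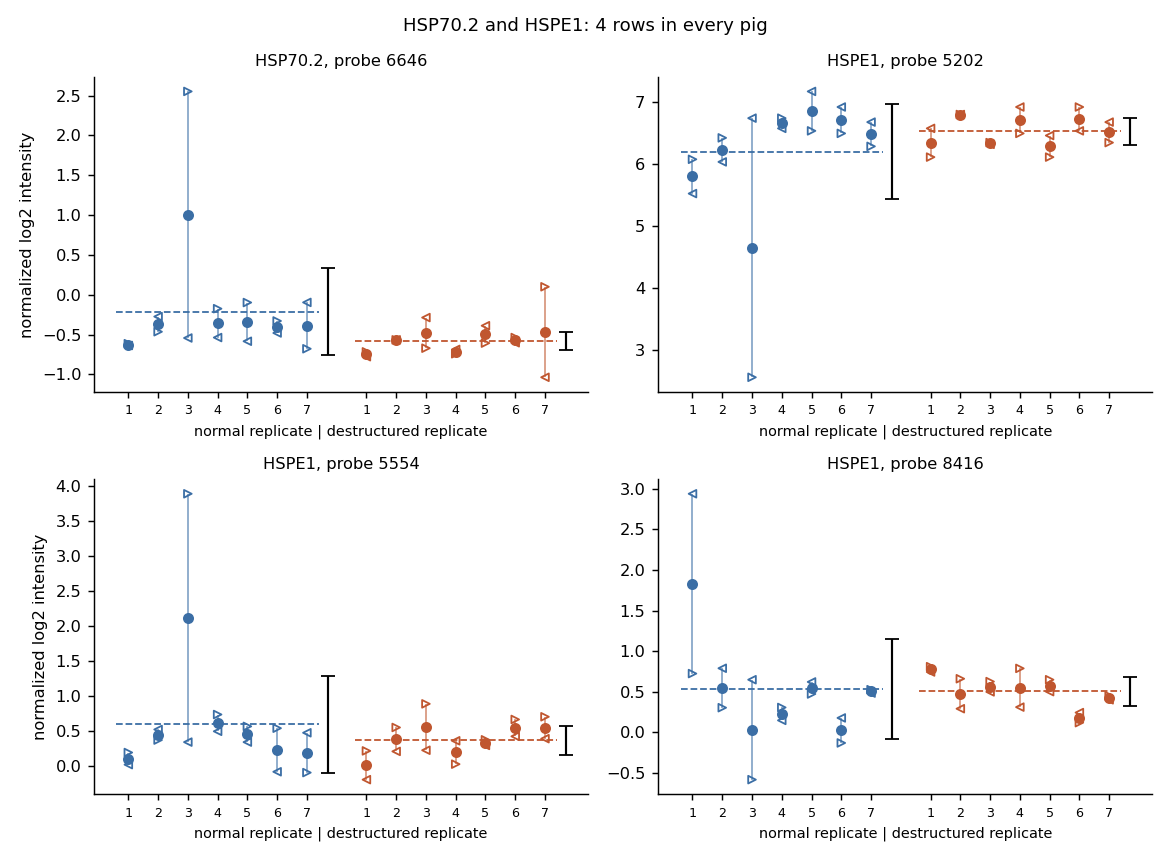
Normalized log2 intensity of the row listed for HSP70.2 and the 3 rows listed for HSPE1 in every pig, normal in blue and destructured in orange. Filled circles are pigs, open triangles the array parts joined by a line, dashed lines group means, black bars the mean ± SD; each panel has its own vertical scale. In rows 6646, 5202 and 5554 normal replicate 3 is far from the other pigs through its right part alone (2.55, 2.57 and 3.89).

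Side by side, the 12 rows had 8 negative and 4 positive differences with a median of -0.17, where the median of all 4608 rows was -0.02 and 53.7% were negative. The 10 chaperone rows lay between -0.49 and 0.33. Leaving out the discordant part brought the HSP70.2 row and the 2 HSPE1 rows it had displaced most to within 0.15 of 0, and left row 8552 of TMBIM6 where it was. The precision of a row was near that of the array: the median SE was 0.20 for the 12 rows and 0.17 for all rows, and left and right parts differed by a median of 0.33 against 0.27. The correlation of the parts within groups had a median of 0.06 in the 12 rows and 0.15 in all rows. In most of these rows pig-to-pig differences inside a group were thus hardly repeated between the parts of 1 membrane.

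**Figure D5:**
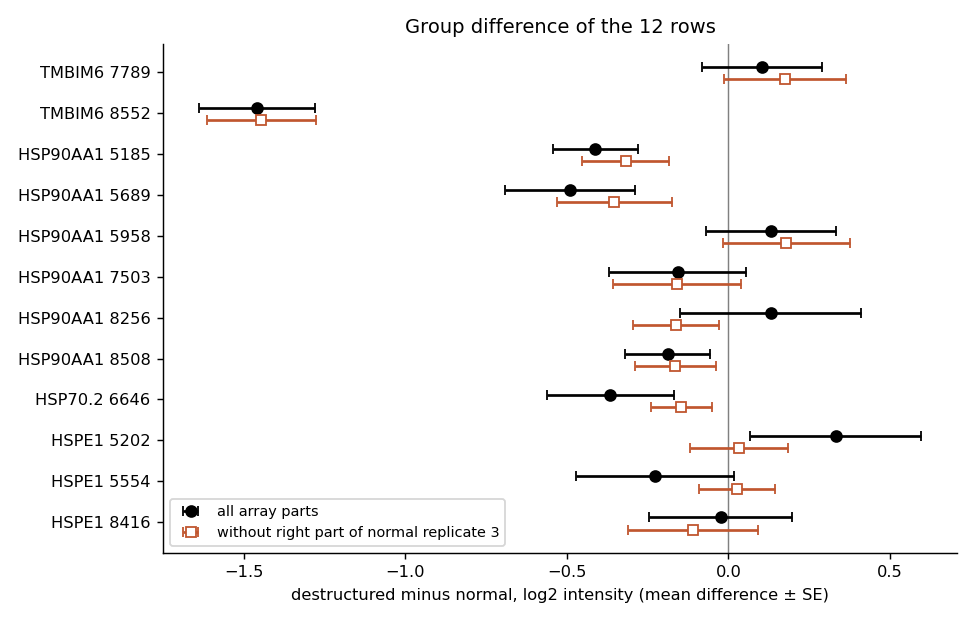
Destructured minus normal log2 intensity ± SE for the 12 rows, black circles for all array parts, orange squares for the fit that drops the discordant right part of normal replicate 3. Row 8552 of TMBIM6 lies at -1.46 and -1.45, and the chaperone rows lie between -0.49 and 0.33 with all parts.

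The named rows most like each gene over pigs were sought by Pearson's r after subtracting group means, over 14 pigs, from the row of each gene with the largest absolute difference. These values describe rows that share every array and carry no test. They are the highest among the 503 to 508 named rows compared for each gene. How high such values run without any relation between rows was not tested. TMBIM6 row 8552 was followed most closely by rows listed for ATP5G1, a subunit of ATP synthase (0.78), CKM, the muscle creatine kinase (0.77), and RPS28, a ribosomal protein (0.69). Without the discordant part these were 0.75, 0.63 and 0.71, and the nearest rows were then those listed for EEF1G, a translation factor (0.79), CKM (another row, 0.78) and ATP5G1 (0.75). The group differences of the first 3 rows were 0.48, -0.01 and 0.01, against -1.46 for row 8552. HSP90AA1 row 5689 was nearest to rows listed for MYLPF (0.83), a fast myosin light chain, ACTB (0.74), the cytoskeletal actin, and SOD1 (0.74), a superoxide dismutase, and these values changed little without the discordant part (0.82, 0.77 and 0.74), though a second MYLPF row (0.80) then stood ahead of ACTB.

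For the other 2 genes the highest values dropped when the discordant part was left out. HSP70.2 row 6646 was nearest to rows listed for HSPE1 (row 5554, 0.97), TNNC2 (0.96), the fast troponin C, and DLST (0.94), of the citric acid cycle. Without that part these fell to 0.76, 0.30 and -0.06, and a row listed for MYLPF was nearest (0.83). HSPE1 row 5202 was nearest to rows listed for PFKM (0.94), ADIPOR2 (0.93) and VCP (0.90), and these fell to 0.73, 0.65 and 0.71, where a row listed for RPS18 was nearest (0.75). Row 6646 of HSP70.2 and row 5554 of HSPE1, both dim, still followed each other at 0.76. They lie at adjoining places of the repeating layout (column 10, rows 2 and 1), and the part of place in this value was not tested. Without the discordant part row 6646 also correlated at 0.72 with row 7789 of TMBIM6, which is no chaperone.

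Of 128 other genes in 4 lists of chaperones, folding and stress in the endoplasmic reticulum, cell death, and the proteasome, 9 are named on the array, by 16 rows. The lists were chosen with earlier results of these data known. The fit called 1 of these 16 rows, higher in destructured muscle, where it called 0.651% of all rows. This was the row listed for VDAC1, the channel of the outer mitochondrial membrane, at 3.62 ± 0.423 in normal and 4.40 ± 0.145 in destructured pigs (limma, difference 0.78, SE 0.17, adjusted p = 0.0402), higher than the normal mean in 7 of 7 destructured pigs. It was called in 11 of 28 alternatives (adjusted p from 0.00774 to 0.262), and in 4 of the 14 that left out 1 pig. In the cell death list TPT1, a growth and survival protein, came next with -0.55 in its row of smallest p (adjusted p = 0.289) and from -0.21 to 0.30 in its 3 other rows. BTG2, an inhibitor of proliferation, was at 0.16 (adjusted p = 0.768).

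In the endoplasmic reticulum list the 4 rows of RYR1, the calcium release channel, lay between -0.34 and 0.28 (smallest adjusted p = 0.481), and ATP2A2, the slow muscle calcium pump, was at 0.01 (adjusted p = 0.994). The only other chaperone named was PPIA, a prolyl isomerase, at 0.12 (adjusted p = 0.784). The proteasome activators PSME3 and PSME1 were at -0.27 (adjusted p = 0.441) and at -0.42 and 0.04 (smallest adjusted p = 0.515). Over the 4 lists 9 rows were positive and 7 negative, so neither direction prevailed. No row was named for the blood and nerve markers. Of the 8 rows listed for fat, endothelial, immune and connective tissue markers 0 were called, where the fit called 0.651% of all rows. Nothing is read from this count. Their levels per pig overlapped between the groups in each of these lists: the 2 fat markers averaged 1.73 to 2.69 in normal and 2.17 to 2.47 in destructured pigs, and the 2 connective tissue markers 2.00 to 3.77 and 1.63 to 2.65. Their part in the results was not tested.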

How the data were processed

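The authors deposited spot intensities on a linear scale, 1 column for each of 28 array parts, from 0.0393 to 443.3. Per the labels' protocols, spots were quantified with BZscan through a fixed grid. Background correction, and division by the first hybridisation that checks the DNA of each spot, are not given in the sources used here. Values were taken to log2 (no offset), quantile normalized and averaged per pig. Groups were compared with limma 3.58.1 (lmFit, eBayes; R 4.3.3), with adjustment by Benjamini-Hochberg over 4608 rows at 0.05. Figures were drawn with matplotlib 3.10.9. The fit was tested on simulated data. Nothing says how pigs were sampled beyond their groups, and the number of arrays limits the precision.

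The members, lists and alternatives were chosen with earlier results of these data known. The named rows are all rows of the 4 genes, the 3 named rows most like each gene, and from the lists every row called and the 3 genes of smallest p. The annotation gave 1 symbol to 509 rows, several to 1, and none to 4098. Alternatives covered scaling, dim rows, array parts, and the pig as a block with the part number as a term. They also covered each pig, variances, array weights, offset, place in the table and several rows per gene.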

Additional observations from a re-analysis of the deposited data

Results flagged for a closer look

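In 24 sets of 7 pigs (12 rows in both groups), 5 held a pig whose gap to its neighbour, as a share of the set's range, was above Dixon's 95% critical value. In independent sets chance gives about 1 in 20, and these sets share pigs and arrays. All 5 were normal pigs, and 4 were normal replicate 3. That pig was lowest in HSP90AA1 row 7503, at 4.62 with the next pig at 5.74, and without its right part it stayed low, at 4.64. It was lowest in HSP90AA1 row 8256, at 1.41 with the next at 3.16, and read 3.47 without the right part. It was highest in HSP70.2 row 6646, at 1.01 with the next at -0.34, and read -0.52 without the right part. It was highest in HSPE1 row 5554, at 2.11 with the next at 0.61, and read 0.36 without the right part. Normal replicate 1 was highest in HSPE1 row 8416, at 1.83 with the next pig at 0.55.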

How the results depend on the processing

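Since the members were chosen from this comparison, the calls are listed and nothing is read from them. TMBIM6 row 8552 was the only member called in 26 of 28 alternatives, with differences from -1.59 (left part alone) to -0.90 (offset of 1), and from -1.57 to -1.32 with 1 pig left out. Leaving out the dimmest 25% or 50% of rows removed it, so 0 members were called there by limma, of 49 and 56 rows called in all. The median over the members was negative in 28 of 30 alternatives. It was 0.12 without the dimmest 50%, where 6 members were left, and 0.03 on the deposited scale, where the median of all rows was 0.21. With array parts fitted singly, the pig as block and the part number as a term of the fit, it was -0.17 with 1 member called. In that fit 107 rows were called in all. The number of rows called over the array was 30 as reported, from 2 to 84 with 1 pig left out and from 1 to 135 otherwise. Of the 12 member rows 9 changed sign in at least 1 setting; rows 8552, 5689 and 6646 did not. No background signal was given, which limits what dim rows can show.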
